A study of Mus musculus with 5 samples.

Results

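The promoters described here belong to genes that build the extracellular matrix and join cells to it or to each other. They were chosen by gene name among the baits of a capture Hi-C study of the embryonic mouse gonad: collagen, laminin, integrin, cadherin, protocadherin, claudin, ADAMTS, matrix metalloproteinase (MMP), fibrillin, thrombospondin, TIMP, zonula occludens and connexin genes on chromosomes 1 to 9, with Col9a3 left out. The table made with the original baits held 65 such baits of 53 genes, out of 7674 baits of 5587 genes, and listed 196 of 28991 contacts within a chromosome. The table made with extended baits held 94 of 11063 baits, 74 of 8390 genes and 339 of 50644 contacts. Together the tables covered 77 genes, of which 50 were in both. No bait of a protocadherin or zonula occludens gene was listed, and connexin baits were listed only with the extended baits. Col5a2, Lamc1, Lama5, Itga6 and Thbs1 had no listed bait in either table. The name pattern also took in Cldnd2, a claudin-domain gene, and the ADAMTS-like genes Adamtsl2 and Adamtsl4, whose products lack the protease part.

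Contacts were measured in Sertoli cells carrying Sox9IRES-GFP (3 libraries) and in pre-granulosa cells carrying Enh8-mCherry (2 libraries), about 100000 sorted cells each, all from gonads at E13.5 and cut with DpnII for the assay. Sertoli cells and pre-granulosa cells are the supporting cells of the fetal testis and ovary. The reporters define the sorted cells, and strain and pooling of embryos are not given in the sources used here. No expression values belong to these tables, so the cell type labels were not checked against marker genes.

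Each table gives 1 CHiCAGO score per contact and cell type, which rises as read pairs between a bait and another piece of chromosome exceed what their distance predicts. A contact joins a bait to a bin of about 5 kb, and a score of 5 or more counted as a call. Each listed contact has a call in Sertoli cells, pre-granulosa cells or both. With 1 value per cell type there is no replicate error and no test between the cell types. How deeply the libraries were sequenced is not known. The scores of touching bins share signal, and baits of one gene are not replicates of each other. Intervals are 95% intervals and cover counting error only. Baits of the original table were single fragments with a median of 661 bp for these genes, and those of the extended table were bins with a median of 5296 bp. The extended table listed no contact under 10 kb in which these genes took part.

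The extracellular matrix is the network of secreted proteins around cells. Collagen IV and laminins form the basement membranes that enclose testis cords, fibrillar collagens fill the stroma, and integrins are the paired alpha and beta receptors that bind cells to both. Cadherins, claudins and connexins make adherens, tight and gap junctions. MMPs and ADAMTS proteases cut matrix proteins, and TIMPs inhibit the MMPs. Sertoli cells later seal the blood-testis barrier with claudin tight junctions, and pre-granulosa cells come to enclose oocytes in follicles.

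RefSeq held a start inside an original bait for 33 promoter windows of 30 of these genes. The windows below are the 250 bases before the start (RefSeq, GRCm38.p6), read 5′ to 3′ on the gene's strand. They are a choice from the 33, made to show the starts behind results described further on: neighbouring claudins, a pair of neighbouring leukocyte integrins, the laminin with the highest pre-granulosa score, and 3 promoters whose calls came from pre-granulosa cells alone. Capitals mark matches, on either strand, to the TATA box (letters TATAAA), the GC box (letters GGGCGG), the core bound by SOX factors (letters AACAAT), the NR5A1 site (letters AAGGTCA), the GATA factor site (letters AGATAA) and an E-box (letters CAGCTG).
Cldn22, chr8:47824232-47824481, plus strand: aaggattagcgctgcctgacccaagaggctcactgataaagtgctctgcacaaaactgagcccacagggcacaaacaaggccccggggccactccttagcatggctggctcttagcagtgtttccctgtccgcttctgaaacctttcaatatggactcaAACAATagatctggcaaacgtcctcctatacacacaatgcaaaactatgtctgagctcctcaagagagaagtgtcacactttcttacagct
Cldn24, chr8:47821893-47822142, plus strand: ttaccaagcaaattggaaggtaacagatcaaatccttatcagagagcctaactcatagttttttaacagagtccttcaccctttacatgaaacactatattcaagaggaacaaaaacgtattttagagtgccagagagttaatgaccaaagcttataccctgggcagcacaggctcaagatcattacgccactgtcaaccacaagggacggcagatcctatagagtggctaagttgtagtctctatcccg
Itgam, chr7:128062390-128062639, plus strand: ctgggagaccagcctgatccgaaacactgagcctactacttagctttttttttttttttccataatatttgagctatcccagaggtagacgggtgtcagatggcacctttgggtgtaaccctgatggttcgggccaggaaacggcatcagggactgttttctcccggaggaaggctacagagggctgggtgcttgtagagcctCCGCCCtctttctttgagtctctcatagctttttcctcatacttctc
Itgax, chr7:128129300-128129549, plus strand: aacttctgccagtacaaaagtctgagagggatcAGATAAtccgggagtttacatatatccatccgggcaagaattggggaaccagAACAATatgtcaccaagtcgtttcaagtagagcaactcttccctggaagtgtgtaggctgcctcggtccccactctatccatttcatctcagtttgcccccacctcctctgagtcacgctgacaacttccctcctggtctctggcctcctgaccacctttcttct
Lamb2, chr9:108479612-108479861, plus strand: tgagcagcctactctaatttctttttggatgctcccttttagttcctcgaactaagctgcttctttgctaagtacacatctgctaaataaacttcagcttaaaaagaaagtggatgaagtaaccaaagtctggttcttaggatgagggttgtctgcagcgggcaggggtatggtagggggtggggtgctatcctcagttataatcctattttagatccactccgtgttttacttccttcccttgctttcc
Col4a4, chr1:82586850-82587099, minus strand: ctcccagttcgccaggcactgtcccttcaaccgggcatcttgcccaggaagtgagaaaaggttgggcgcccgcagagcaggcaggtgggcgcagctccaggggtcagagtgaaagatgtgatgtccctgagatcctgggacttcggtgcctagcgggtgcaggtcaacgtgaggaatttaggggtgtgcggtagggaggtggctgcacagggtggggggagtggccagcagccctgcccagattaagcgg
Col3a1, chr1:45311288-45311537, plus strand: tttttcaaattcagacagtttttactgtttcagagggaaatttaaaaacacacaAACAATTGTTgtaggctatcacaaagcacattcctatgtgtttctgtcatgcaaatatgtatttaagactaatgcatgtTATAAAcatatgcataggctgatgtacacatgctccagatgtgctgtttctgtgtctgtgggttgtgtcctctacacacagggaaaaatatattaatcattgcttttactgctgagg
Cldn11, chr3:31149670-31149919, plus strand: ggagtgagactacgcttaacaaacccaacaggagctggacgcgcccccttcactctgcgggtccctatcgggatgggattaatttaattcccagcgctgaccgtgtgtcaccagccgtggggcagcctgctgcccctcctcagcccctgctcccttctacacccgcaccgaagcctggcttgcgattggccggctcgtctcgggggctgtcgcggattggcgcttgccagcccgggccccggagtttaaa

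Cldn22 and Itgax each held 1 AACAAT match, and Itgax also 1 AGATAA match. Col3a1 held AACAAT on both strands, over bases that overlap, and 1 TATAAA match. Itgam held 1 GGGCGG match on the other strand, and the windows of Cldn24, Lamb2, Col4a4 and Cldn11 held none of the 6 motifs. Over all 33 windows, AACAAT occurred in 4 (12.1%, Wilson interval 4.82 to 27.3%), against 7.87% of the 3760 windows of all genes with a start inside an original bait. With the extended baits it occurred in 2 of 55 windows (3.64%, interval up to 12.3%). GGGCGG occurred in 12 (36.4%, interval 22.2 to 53.4%) against 40.5%, CAGCTG in 7 (21.2%, interval 10.7 to 37.8%) against 13.6%, TATAAA in 4 (12.1%) against 11.2%, and AAGGTCA and AGATAA in 1 each (3.03%) against 4.31% and 8.70%. The median GC content was 55.2% in both sets. The median number of CpG dinucleotides was 6 (interval 3 to 10) against 8. For each motif, the share over all windows lay within the counting interval of these genes.

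Matrix and junction promoters were listed with more contacts in Sertoli cells than in pre-granulosa cells, by about the same factor as all promoters. With the original baits there were 158 calls for Sertoli and 71 for pre-granulosa cells, which is 2.23 times as many (interval 1.67 to 2.99) against 1.93 over all baits. Both cell types called 33 of the 196 contacts (16.8%, against 21.7% of all contacts), 125 were called in Sertoli cells only (63.8%, against 58.5%) and 38 in pre-granulosa cells only (19.4%, against 19.8%). In the extended table the counts were 252 and 182, a ratio of 1.38 against 1.41 over all baits. There 95 contacts were called in both cell types (28.0%, against 34.6%), 157 in Sertoli cells only (46.3%, against 44.1%) and 87 in pre-granulosa cells only (25.7%, against 21.3%). Contacts called in both cell types made up 20.9% of Sertoli calls (interval 15.3 to 27.9%) against 27.0% over all baits, and 46.5% of pre-granulosa calls (interval 35.4 to 58.0%) against 52.3%. With the extended baits these shares were 37.7% (interval 31.9 to 43.8%) against 43.9%, and 52.2% (interval 45.0 to 59.3%) against 61.8%. There both shares over all baits lay above the intervals.

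By bait, 44 of the 65 had more Sertoli calls (67.7%, against 65.2% of all baits), 14 had more pre-granulosa calls (21.5%, against 22.0%) and 7 had equal numbers. With the extended baits, 47 of 94 had more Sertoli calls, against 53.6% of all baits, and 32 more pre-granulosa calls (34.0%, against 26.4%). The 2 tables come from the same libraries. Of the 61 original baits that the extended table also holds, 40 had the same direction in both, 13 moved to or from equal numbers and 8 turned. Most baits had few contacts: the median was 2, and 21 baits had a single one. The baits of single genes below are therefore described by their scores.

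**Figure D1:**
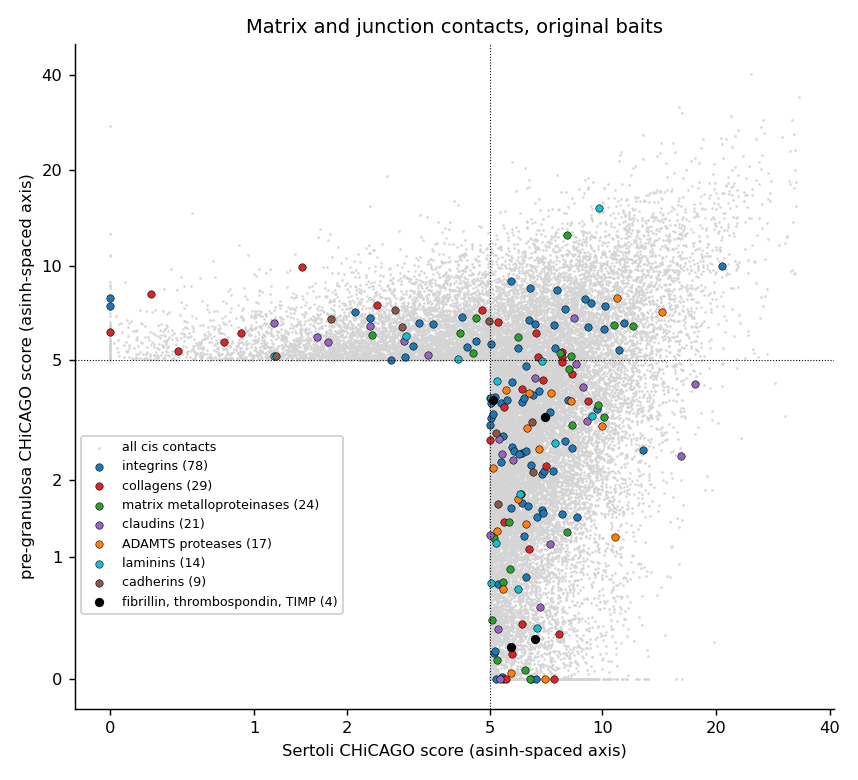
CHiCAGO score of each contact in Sertoli cells (x axis) and pre-granulosa cells (y axis), original baits, on asinh-spaced axes; coloured points are the 196 matrix and junction contacts by family, grey points all 28991 contacts, and dotted lines mark the score of 5. Most coloured points lie in the lower right, called in Sertoli cells only, and the coloured point farthest to the right is an Itga9 contact at 20.7.

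**Figure D2:**
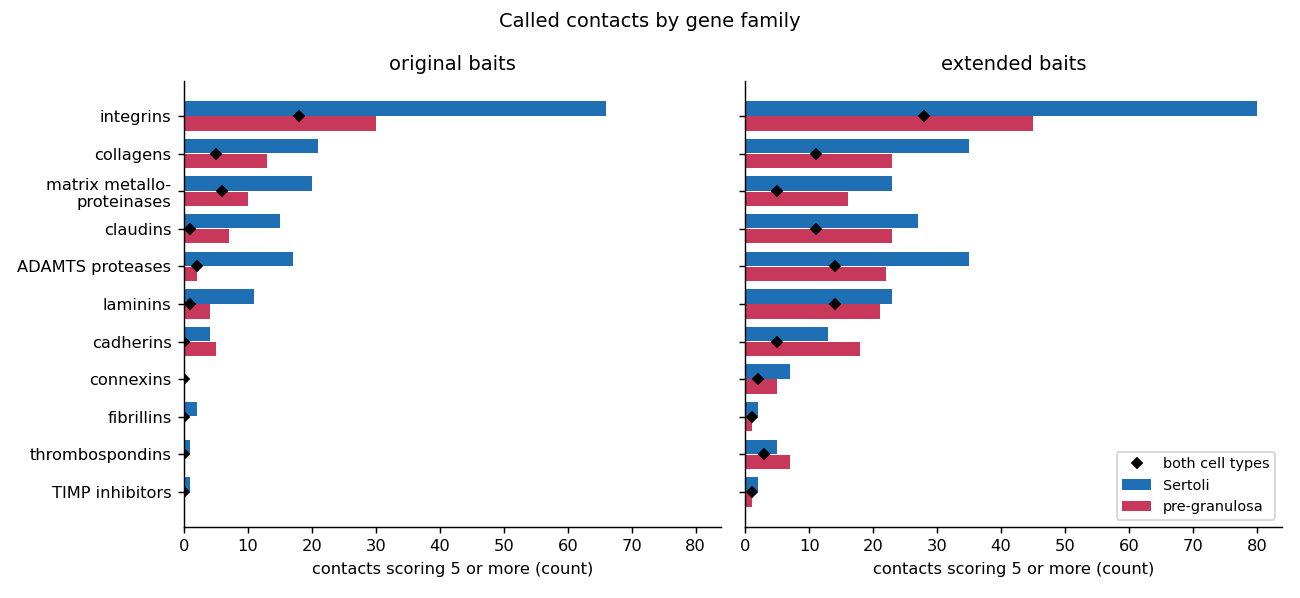
Number of contacts called (score of 5 or more) in Sertoli cells (blue) and pre-granulosa cells (red) for each family, with the number called in both as a diamond, in the original (left) and extended (right) table. Integrins had the most calls, 66 and 30 with the original baits. Cadherins had more pre-granulosa than Sertoli calls in both tables, an excess made up by Cdh16 alone.

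The 13 collagen baits of the original table had 21 Sertoli and 13 pre-granulosa calls, with 5 shared; 6 baits had more Sertoli calls, 4 more pre-granulosa calls and 3 equal numbers. With the extended baits there were 35 and 23 calls. The chains of collagen IV differed in direction. Col4a4, which lies head to head with Col4a3 and encodes a chain of specialised basement membranes, was called in pre-granulosa cells only. Its bait met neighbouring bins inside Col4a3, at chr1:82626010-82631864 and chr1:82631865-82637311, 42.7 and 48.4 kb away. The first scored 8.14 in pre-granulosa and 0.254 in Sertoli cells, and the second 7.52 and 2.45. With the extended bait the same gene gave 8.48 against 0.199 and 7.73 against 2.51. Col4a1, a chain of nearly all basement membranes, was called in Sertoli cells only, at neighbouring bins inside its head-to-head partner Col4a2 (chr8:11387449-11392589 and chr8:11392590-11397668, 110 and 115 kb away). They scored 7.66 and 7.81 in Sertoli cells against 0.329 and 4.94 in pre-granulosa cells, so the second missed a call by little. The Col4a1 bait lies 32.8 kb inside the gene from its RefSeq start. Col4a2 and Col4a3 had no bait of their own in either table.

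Col6a6, a collagen VI chain, had the most calls of any collagen in the original table. Its bait had 6 contacts, 5 of them inside the gene itself. The farthest, at 134 kb (chr9:105692025-105697102), scored 7.42 in Sertoli cells but 0 was listed for pre-granulosa cells. On the asinh scale this was the largest difference towards Sertoli cells among the 196 contacts. Scores at 113 and 59.2 kb were 6.38 against 1.08 and 5.74 against 0.178. At 9.65 kb the scores were 8.32 against 4.52. Both cell types called the bins at 20.4 kb (5.26 against 6.61) and at 8.00 kb on the other side (6.65 against 6.12). The extended bait listed 2 contacts, both called in Sertoli cells only, and the bin at 134 kb was not among them. The bait of Col6a4, another collagen VI gene of the same chromosome, had 1 contact, 30.8 kb inside its gene, with 6.11 in pre-granulosa and 0.886 in Sertoli cells.

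Col26a1 had 1 contact, inside its own gene at 93.6 kb. It scored 9.88 in pre-granulosa against 1.46 in Sertoli cells, and 10.8 against 1.84 with the extended bait. Col20a1, a fibril-associated collagen, was split: the bin at 12.6 kb in Arfgap1 scored 6.95 in Sertoli and 4.32 in pre-granulosa cells, and the bin at 75.3 kb scored 0.426 and 5.36. Col8a2, a short-chain collagen of endothelial matrices, had 5 contacts, all called in Sertoli cells with scores of 5.03 to 7.81, and 2 of them also in pre-granulosa cells. Col7a1, the collagen of anchoring fibrils, scored 9.17 against 3.70 at a bin 7.90 kb inside the gene and 0.753 against 5.71 at Slc26a6, 96.4 kb away. With its extended bait it had 5 Sertoli calls and 0 pre-granulosa calls, the highest at the Celsr3 promoter (14.2 against 2.50).

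The fibrillar collagens of the original table had only far contacts. Col3a1, the collagen of reticular fibres, had 1, at 565 kb inside Gulp1 (chr1:44743828-44749152), with 7.22 in pre-granulosa and 4.77 in Sertoli cells, just under a call. Col11a1, a minor fibrillar collagen, had a bin at 408 kb in Rnpc3 with 6.14 in pre-granulosa cells and 0 listed for Sertoli cells. Its bin at 377 kb went the other way, with 5.55 in Sertoli cells and 0 listed for pre-granulosa cells. Col1a2, a chain of collagen I, had an extended bait only, with 8.67 in pre-granulosa and 4.22 in Sertoli cells at 10.5 kb. Col27a1, a fibrillar collagen of cartilage, likewise had an extended bait only; it met the Orm3 promoter with 7.36 in Sertoli and 7.78 in pre-granulosa cells and the Kif12 promoter with 7.26 against 2.24. The other collagen baits of the original table had 1 or 2 contacts each, with top scores of 7.08 for Col19a1, 7.82 for Col16a1 and 5.46 for Col15a1, each in Sertoli cells.

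The 6 laminin baits had 11 Sertoli and 4 pre-granulosa calls, with 1 shared, and 21 pre-granulosa against 23 Sertoli calls with the extended baits. Lamb2, the beta chain of synaptic and kidney basement membranes, held the highest pre-granulosa score among the 196 original contacts. The bin chr9:108485671-108490466, inside the gene and 7.85 kb from the downstream of its 2 adjoining baits, scored 15.2 in pre-granulosa and 9.78 in Sertoli cells. The upstream bait, the touching restriction fragment, met the same bin with 3.29 in pre-granulosa and 9.40 in Sertoli cells, so the order of the cell types turned between touching fragments. With the extended bait, which holds both fragments, Lamb2 had 11 Sertoli and 12 pre-granulosa calls, with the highest Sertoli scores at the Qars promoter 32.0 kb away (30.5 against 10.9) and the Ccdc71 and Klhdc8b promoters 22.6 kb away (26.8 against 18.4).

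Lamc3, a gamma chain of nerve and reproductive tract laminins, was called in Sertoli cells only in the original table. Its adjoining baits had 4 contacts 38.0 to 73.8 kb away, all inside the neighbour Fibcd1, with Sertoli scores of 5.05 to 7.51 and pre-granulosa scores of 0.374 to 2.68. Lamb3 encodes a chain of the laminin of epithelial attachment. It had 1 contact in each cell type, 5.97 against 0.693 at 8.19 kb and 1.18 against 5.16 at 34.0 kb. In the extended table the Lamb3 baits met the Hsd11b1 promoter with 28.8 against 20.5 and 15.0 against 8.78. Fbn1, the main microfibril protein, had 2 contacts beyond the far end of its gene, at 219 and 240 kb, with 5.69 and 7.05 in Sertoli and 0.233 and 3.27 in pre-granulosa cells. Thbs3, a pentameric matrix glycoprotein, had 1 Sertoli call and 0 pre-granulosa calls with the original bait, but 5 and 7 with the extended one.

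Integrin promoters carried 78 of the 196 contacts and 66 of the 158 Sertoli calls. More Sertoli calls were found at 12 of their 15 baits, against 65.2% of all baits. Of the 78 contacts, 40 come from 1 cluster. Itgam, Itgax and Itgad encode alpha subunits of leukocyte integrins (CD11b, CD11c and CD11d) and lie side by side on chromosome 7. Their 5 baits had 40 contacts, with 38 Sertoli calls, 12 pre-granulosa calls and 10 shared. The cluster's bins were used by several baits: the bin chr7:128140325-128145658 inside Itgax was met by 4 of the 5 baits. The Itgax bait scored 12.8 there in Sertoli and 2.54 in pre-granulosa cells. The Itgad bait at the RefSeq start scored 5.70 and 8.95 at the same bin, the Itgad bait near the gene's far end 5.06 and 5.62, and the Itgad bait upstream of the start 5.36 and 2.31, so the order of the cell types depended on the bait.

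The Itgad bait near the far end had the largest excess of Sertoli calls of any matrix or junction bait in the original table, 10 against 3. When the Sertoli threshold was raised until both cell types had as many calls over all baits, this excess fell from 7 to 3, that of Itgax from 6 to 3 and that of Itgam from 6 to 1. It met Itgam at 97.8 kb with 11.1 in Sertoli and 5.38 in pre-granulosa cells, and a bin upstream of Itgam at 186 kb (chr7:128015052-128020245) with 6.46 and a listing at 0. With the extended baits the scores at this place were closer, 7.15 against 2.76. The Itgam bait met the same bin with 5.16 and 3.80, and the Itgad bait at the start met it from 156 kb with 7.47 and 5.46. The Itgam bait had 7 Sertoli calls, at 5.14 to 6.92, and 1 pre-granulosa call. Itgax had 8 and 2, and both of its pre-granulosa calls were shared and slightly higher there (8.36 against 7.59 at 18.1 kb inside Itgam, and 8.48 against 6.43 at 8.16 kb). In the extended table the cluster had 53 Sertoli and 28 pre-granulosa calls. There 1 bin holds inner Itgad starts together with the start of Cox6a2, which is no matrix gene. It had 35 contacts, and 16 of the 11063 baits had more, with 32 Sertoli and 14 pre-granulosa calls, and its highest scores were at the Pycard promoter (29.5 against 10.5) and the Trim72 promoter (24.7 against 5.16). Without the 5 cluster baits the remaining promoters had 120 Sertoli and 59 pre-granulosa calls, a ratio of 2.03.

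**Figure D3:**
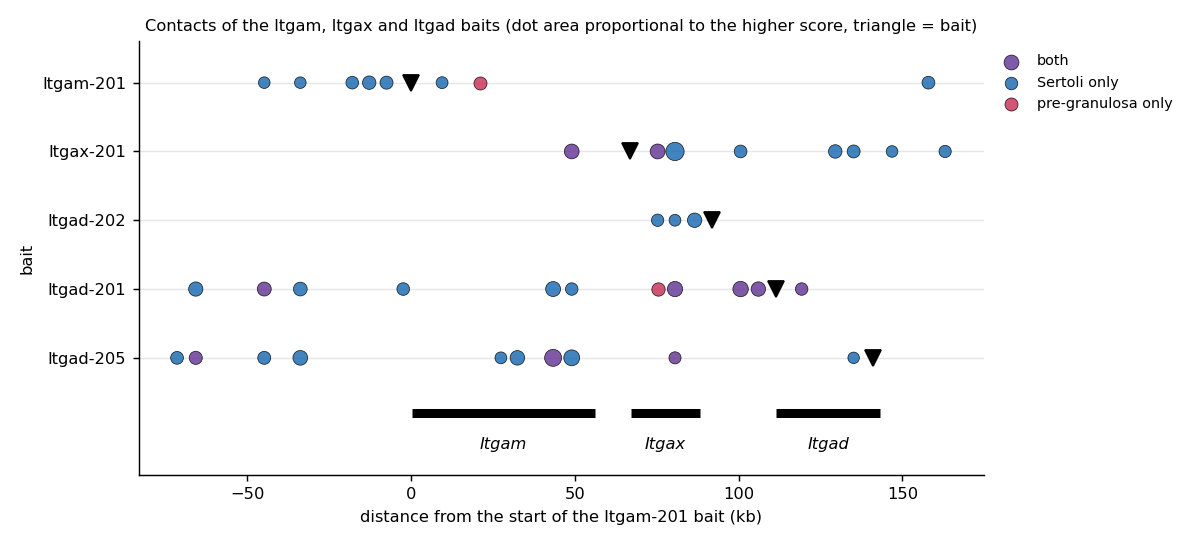
Contacts of the 5 Itgam, Itgax and Itgad baits (rows) by distance in kb from the Itgam bait, original table; triangles are baits, dots are bins coloured by the cell type that called them with area proportional to the higher score, and black bars are the genes. Dots in 1 column are the same bin met by several baits, such as the bin inside Itgax met by 4 baits. Of the 40 contacts, 38 were called in Sertoli cells, against 23257 of 28991 over all baits.

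Itga9, the alpha subunit that binds tenascin and other matrix ligands, held the highest Sertoli score among the 196 original contacts. Its first bait lies at the start of a gene of 294 kb, and all 11 of its contacts lay 252 to 317 kb away, in the last stretch of the gene and beyond its end. The bin chr9:118893856-118898986, the last full bin inside the gene, scored 20.7 in Sertoli and 10 in pre-granulosa cells. The other 8 bins with a Sertoli call scored 5.05 to 9.01. The outermost bins, chr9:118915264-118920371 and chr9:118920372-118926174, were called in pre-granulosa cells only, at 7.42 and 7.86, and were listed at 0 in Sertoli cells. Each of these 2 bins has 1 other row in the table, which is not at 0 in Sertoli cells. The extended bait gave the same picture, 18.7 against 10.3 at the peak and 8.06 and 8.08 against listings at 0 at the outer bins. The baits further inside had 2 and 9 contacts, all within the gene, the highest 8.55 kb from the middle bait (11.4 against 6.57).

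Itgb1, the beta subunit shared by most matrix-binding integrins, had 4 Sertoli and 3 pre-granulosa calls from a bait inside the gene, and 4 and 2 with the extended baits. It met a bin 3.48 kb away with 10.2 and 7.45, and a bin 72.9 kb away beyond the gene's start with 9.33 and 7.59. Itgav, the alpha subunit of vitronectin and TGF-beta-activating receptors, had 4 Sertoli and 3 pre-granulosa calls from 2 baits (extended, 2 and 2), all original ones within 13.9 kb and inside the gene. The bin nearest to both scored 10.1 and 6.29 from one bait and 6.38 and 6.73 from the other. Itgb6, the epithelial partner of Itgav, had the farthest of the 196 contacts, at 689 and 734 kb, with 5.22 and 7.38 in Sertoli cells against a listing at 0 and 2.15. Itga8, the nephronectin receptor, and Itga10, a collagen receptor, had 0 and 1 Sertoli calls against 1 and 2 pre-granulosa calls, with Itga10 scoring 7.44 and 6.45 at the bin both cell types called.

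**Figure D4:**
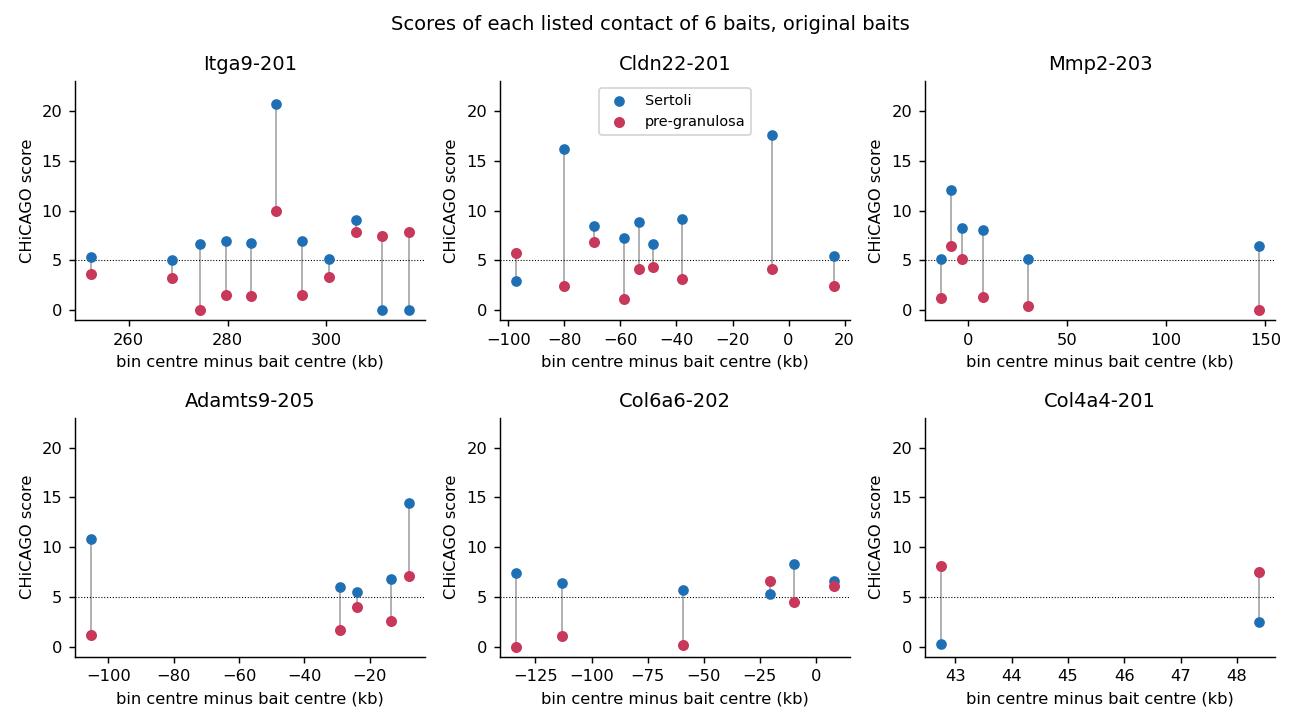
CHiCAGO scores in Sertoli cells (blue) and pre-granulosa cells (red) of each listed contact of 6 baits against the signed distance in kb from bait centre to bin centre, original table; grey lines join the 2 scores of a contact and the dotted line marks 5. Sertoli scores lie above pre-granulosa scores at most bins of the first Itga9 bait, Cldn22, the inner Mmp2 bait, Adamts9 and Col6a6, and below them at both bins of Col4a4 and at the outermost Itga9 bins.

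Claudins, the sealing proteins of tight junctions, had 15 Sertoli and 7 pre-granulosa calls from 9 baits with 1 shared. The 10 extended baits had 27 and 23 calls with 11 shared. With the original baits Cldn22, which lies beside Cldn24 on chromosome 8, had 8 Sertoli calls and 2 pre-granulosa calls. The bin next to it (chr8:47816479-47821917, 5.76 kb) scored 17.6 in Sertoli and 4.17 in pre-granulosa cells. A bin 80.1 kb away, with no protein-coding gene in it (chr8:47742199-47747497), scored 16.2 and 2.42. The 5 listed bins between them were called in Sertoli cells at 6.61 to 9.11, of which only the one at 69.3 kb was also called in pre-granulosa cells (6.84). Cldn24 had 2 Sertoli calls in bins that Cldn22 also met, 6.83 against 0.543 and 5.32 against 2.76. With extended baits Cldn22 had 8 Sertoli calls and 1 pre-granulosa call, the nearest at 16.6 kb, and Cldn24 turned to 0 and 1.

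Apart from Cldn22, the claudin genes Cldn4, Cldn19, Cldn23 and Cldn24 had only Sertoli calls in the original table, Cldn11 and Cldnd2 only pre-granulosa calls, and Cldn15 both. Extended, Cldn4 had 3 Sertoli and 2 pre-granulosa calls and Cldn23 had 3 and 1, while Cldn19 turned to 0 and 1 (0.401 in Sertoli and 7.50 in pre-granulosa cells). In the original table Cldn19 and Cldn23 had 1 call each (5.02 against 1.25 and 5.26 against 0.367). Cldn11, the claudin of Sertoli cell tight junctions, had 1 contact, with 5.94 in pre-granulosa and 1.63 in Sertoli cells at Slc7a14, 77.4 kb away (chr3:31225989-31231189). Its extended bait had 3 contacts, all called in pre-granulosa cells only: Slc7a14 again (5.90 against 1.28), the Prkci promoter at 110 kb (8.00 against 2.10) and the Skil promoter at 49.9 kb (5.68 against 2.77). The Cldn15 bait at the start had 2 pre-granulosa calls (5.70 against 1.76 and 5.20 against 3.39) and, extended, 4. The other Cldn15 bait, upstream of it, had 1 Sertoli call (8.53 against 4.87). Cldnd2 had 2 pre-granulosa calls in the original table, 6.45 and 6.55 against 2.33 and 1.18, but 6 Sertoli against 4 pre-granulosa calls with its extended bait, which holds a further Cldnd2 start. Cldn4, an epithelial claudin, met a bin in Eln, the elastin gene, at 240 kb with 5.33 in Sertoli cells and a listing at 0 in pre-granulosa cells. The extended Cldn13 bait met the Eln promoter with 11.4 against 1.16.

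Cadherins, the adhesion molecules of adherens junctions, were the only family of at least 5 baits with more pre-granulosa calls. They had 5 against 4 with the original baits and 18 against 13 with the extended ones. Cdh16 alone made up this excess, with 1 pre-granulosa call and 0 Sertoli calls, and 8 and 3 with its extended baits. No contact of the family was shared in the original table. Cdh17, of liver and intestine epithelium, scored 7.20 and 6.77 in pre-granulosa cells against 2.75 and 1.79 at 24.9 and 68.2 kb, and 6.52 in Sertoli cells against 3.15 at 9.17 kb. Cdh1 and Cdh3, E-cadherin and P-cadherin, are neighbours. Cdh1 had 1 contact, 35.6 kb away in a bin with no protein-coding gene, with 5.22 in Sertoli and 2.90 in pre-granulosa cells. Cdh3 had 2 pre-granulosa calls (6.40 and 5.14) and 1 Sertoli call (5.27). Cdh16 scored 6.68 in pre-granulosa and 4.98 in Sertoli cells at its single bin, and 7 of the 9 contacts of its extended baits had the higher score in pre-granulosa cells. Cdh5, the endothelial cadherin, had 1 contact, with 6.53 against 2.13 at Tk2.

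Connexins had 6 extended baits with 7 Sertoli and 5 pre-granulosa calls. Gja4, which forms gap junctions between oocyte and follicle cells in the adult ovary, had 2 Sertoli calls and 1 pre-granulosa call. Gja5, a connexin of vessels and the heart, had 2 extended baits. Both met the Pdzk1 promoter, with 5.82 in Sertoli and 5.55 in pre-granulosa cells from one bait and 5.50 against 1.19 from the other.

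All 17 contacts of the 6 ADAMTS baits were called in Sertoli cells, and 2 of them in pre-granulosa cells as well. Over all baits, 23257 of 28991 contacts were called in Sertoli cells. With the extended baits the counts were 35 and 22. Adamts9, a versican-cutting protease, had 5 contacts inside its own gene, from a bait that lies 41.8 kb inside the gene from its RefSeq start. The nearest scored 14.4 in Sertoli and 7.14 in pre-granulosa cells at 7.91 kb, and the farthest 10.8 and 1.21 at 105 kb (chr6:92792752-92798801). The other 3 scored 5.54 to 6.80 in Sertoli cells and 1.70 to 3.99 in pre-granulosa cells. Adamts13, which cuts von Willebrand factor, had 5 Sertoli calls (5.42 to 9.97) with pre-granulosa scores of 0.695 to 3.92. Its extended bait had 3 Sertoli and 2 pre-granulosa calls. Adamtsl2 met Sardh at 157 kb with 8.28 against 3.69.

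Adamts15, a hyalectan-cutting protease, had 3 contacts, 397 to 445 kb away. The bin at 440 kb was called in both cell types (10.97 in Sertoli and 7.89 in pre-granulosa cells), its neighbour in Sertoli cells (6.26 against 1.38), and the bin at 397 kb scored 7.05 in Sertoli cells, with 0 listed for pre-granulosa cells. The extended bait gave 12.1 against 7.95, 5.23 against 1.31 and 5.82 against 0 at these places. Adamts17 had 1 contact from each of 2 baits, 5.24 against 1.29 at 128 kb and 5.71 against 0.0387 at 355 kb. Its extended baits turned this order, with 1 Sertoli and 4 pre-granulosa calls.

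MMP genes had 20 Sertoli and 10 pre-granulosa calls from 8 baits, 6 shared. The 14 extended baits had 23 and 16 calls, and 5 of them had more Sertoli calls and 6 more pre-granulosa calls. Mmp2, gelatinase A, which cuts collagen IV and denatured collagen, was called mainly in Sertoli cells. The bin chr8:92832972-92838114 inside the gene scored 12.1 in Sertoli and 6.43 in pre-granulosa cells, and the next bin 8.24 and 5.15. Both Mmp2 baits met the bin chr8:92987928-92993067 in Slc6a2, the noradrenaline transporter gene: from 163 kb with 9.75 against 3.57, and from 147 kb with 6.42 against a listing at 0. With extended baits Mmp2 had 8 Sertoli calls and 0 pre-granulosa calls. These included the contact between its own 2 baits, 16.99 against 2.78 seen from one and 10.2 against 1.35 seen from the other.

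Mmp9, gelatinase B, had 8 Sertoli and 4 pre-granulosa calls with the original baits, but 5 and 0 with the extended ones. The bin inside the gene next to its inner bait (chr2:164940897-164945921) scored 12.5 in pre-granulosa and 8.06 in Sertoli cells, whereas 3 bins at 77.2 to 94.7 kb, in and past Ncoa5, scored 5.43 to 6.21 in Sertoli cells and 0.0635 to 0.878 in pre-granulosa cells. A bin upstream of the gene was met by both baits, with 10.1 against 3.27 and 7.72 against 5.26. Mmp15, a membrane-bound MMP, scored 10.8 and 6.49 at a bin in Cfap20 called in both, and 4.16 and 6.11 at another. Mmp23 had 2 Sertoli calls (8.33 at Fndc10 and 5.25 at Tmem88b) and 1 pre-granulosa call. Timp4, the only TIMP with a bait on chromosomes 1 to 9, met a bin at 285 kb with 6.61 in Sertoli and 0.292 in pre-granulosa cells, and its extended bait met the Pparg promoter at 170 kb with 8.74 in pre-granulosa and 5.77 in Sertoli cells.

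Bins that are themselves baits were met almost only with the extended baits. Over all original baits, 21 of 23257 Sertoli and 8 of 12025 pre-granulosa calls ended on one, and 0 of the calls of these genes. Bins with a RefSeq start took 6 of 158 Sertoli calls of these genes (3.80%, against 4.68% over all baits). They took 7 of 71 pre-granulosa calls (9.86%, against 4.70%). Of the 339 extended contacts, 171 ended on another bait, and 30 of these joined 2 matrix or junction baits, forming 18 pairs. Of these pairs, 12 were listed from both ends and 11 joined baits of 1 gene. The strongest joined alternative starts of a cadherin. One Cdh7 bait met the bin of the other Cdh7 starts, 10.5 kb away, with 33.5 in pre-granulosa and 29.9 in Sertoli cells, but the same pair seen from the other end scored 7.40 and 2.69. The 2 ends of the Cdh16 pair scored 21.8 and 20.5, and 18.0 and 23.1. Pairs of different genes included Itgam, Itgax and Itgad among themselves, Cldn4 with Cldn13, Mmp1a with Mmp3 and Mmp8 with Mmp27. Mmp1a met Mmp3 with 9.17 in Sertoli and 9.27 in pre-granulosa cells and from the other end with 4.47 and 6.47. The Itgax bait met the Itgad bin with 17.3 against 5.47, and the reverse gave 14.9 against 3.40.

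Contact distances had medians close to those of all baits. Sertoli calls lay a median of 44.4 kb away (interval 22.0 to 64.8 kb) against 42.6 kb over all baits, and pre-granulosa calls 24.8 kb (interval 12.9 to 37.7 kb) against 26.04 kb. The ends of the distribution differed more. Calls under 10 kb made up 45 of 158 in Sertoli cells (28.5%, interval 22.0 to 36.0%, against 21.7% over all baits). In pre-granulosa cells they were 24 of 71 (33.8%, interval 23.9 to 45.4%, against 29.1%). The extended baits list no contact of these genes at this range. Calls at 200 kb or more made up 23 of 158 in Sertoli cells (14.6%, interval 9.90 to 20.9%, against 6.99% over all baits) and 8 of 71 in pre-granulosa cells (11.3%, interval 5.82 to 20.7%, against 5.06%). In the extended table they were 9.52% (interval 6.48 to 13.8%) against 6.17%, and 7.69% (interval 4.64 to 12.5%) against 5.51%. Without the first Itga9 bait, which holds 9 and 4 of them, the shares were 9.40% (interval 5.68 to 15.2%) and 5.97% (interval 2.35 to 14.4%) with the original baits, and 7.32% (interval 4.68 to 11.3%) and 5.62% with the extended ones. Calls between 100 and 200 kb were 25 in Sertoli against 1 in pre-granulosa cells (1.41%, interval 0.249 to 7.56%, against 13.3% over all baits). The extended baits showed no such gap, with 26 of 182 pre-granulosa calls there (14.3%, against 14.7% over all baits). Bins inside the bait's own gene took 60 of 158 Sertoli calls (38.0%, against 30.1%) and 32 of 71 pre-granulosa calls (45.1%, against 34.8%). The extended table gave shares of 23.8% against 21.0%, and 20.9% against 22.4%, so the pre-granulosa share was no longer above that of all baits. The genes themselves are long, with a median of 38.2 kb (interval 23.3 to 59.7 kb) against 19.3 kb for all genes with a bait. Some original baits also lie well inside their gene. Those of Itga8, Col15a1 and Itgav were 169, 95.2, 77.4 and 78.2 kb from the nearest RefSeq start. The part of gene length or bait place in these shares was not tested. In the extended table, Itgb6, Itga9, Adamts15 and Col11a1 again had contacts at 300 kb or more, but the Itgb6 bin at 689 kb and the Col11a1 bin at 377 kb were not listed, and Col11a1 had a further bin at 402 kb called in pre-granulosa cells only (5.39 against 1.66). Among the other genes, Mmp9 met the Elmo2 promoter at 375 kb with 5.58 in Sertoli cells and 0 listed for pre-granulosa cells, and Col28a1 met a bin at 443 kb with 5.44 in pre-granulosa cells and 0 listed for Sertoli cells.

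**Figure D5:**
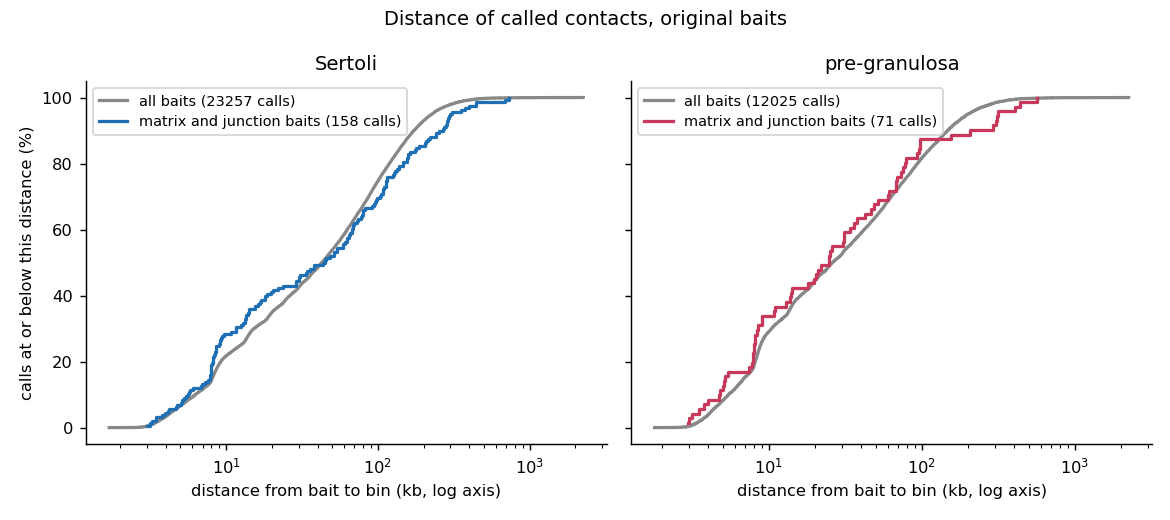
Cumulative share of calls (y axis, percent) by distance between bait and bin (x axis, kb, log scale), for Sertoli cells (left) and pre-granulosa cells (right), original table; coloured steps are matrix and junction baits, grey lines all baits. The coloured Sertoli curve lies below the grey one at 200 kb, where 14.6% of these calls against 6.99% of all lie farther, and the coloured pre-granulosa curve is nearly flat between 100 and 200 kb, where it holds 1 call; the extended table, not drawn, has 26 there.

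A list of 71 other matrix and junction genes, such as catenins, perlecan, tenascins and procollagen-processing enzymes, was set beside these. Of the 23 with an original bait, 17 had more Sertoli calls, 5 more pre-granulosa calls and 1 equal numbers, with 113 and 48 calls in all (ratio 2.35, against 1.93 over all baits). Ctnnb1, which encodes beta-catenin, and Ctnnd1, which encodes the p120 catenin that steadies cadherins, had 30 and 22 Sertoli calls against 8 and 12. F11r, a tight junction adhesion molecule, and Serpinh1, the collagen chaperone, went the other way, with 6 against 8 and 3 against 4 in the original table only: extended, they had 10 against 8 and 2 against 2. With extended baits 38 of the 71 genes had a bait, with 226 Sertoli and 123 pre-granulosa calls (ratio 1.84, against 1.41 over all baits).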

How the data were processed

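Capture Hi-C contacts were taken from the deposited tables of CHiCAGO scores. Each score column pools the libraries of 1 cell type, per the labels, and how the libraries were combined, the CHiCAGO version and the read filters are not given in the sources used here. The build is mm10, per the submitters' processing notes; of 47 original baits with a RefSeq promoter entry (GRCm38.p6, the same primary assembly), 47 lay on its chromosome and 31 held a start. Rows within a chromosome on chromosomes 1 to 9 were kept, and a score of at least 5 was a call. The members and lists were chosen with earlier results of these data known.

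Named were: in each family the gene with most calls (ties to the higher score), the 8 highest scores per cell type, the 6 largest asinh differences and 5 largest call excesses per direction, contacts of at least 300 kb, pairs of member baits, family clusters within 200 kb and 21 listed genes, 10 of which had an original bait; other genes were named after their values were seen. All 77 gene symbols were found in RefSeq and 57 in its promoter table. Shares have Wilson intervals, medians order-statistic intervals and call ratios exact conditional intervals. With 1 value per cell type no test was made. A few named results are not reported here. Alternatives were a score of 10, the extended baits, baits of these genes alone, merged touching bins, equal numbers of calls and, chosen after seeing the data, leaving out integrin baits. The counting was tested on simulated data, with 50 of 50 tables recovered. Python 3.11.15, pandas 2.3.3, NumPy 2.4.6, SciPy 1.17.1 and matplotlib 3.10.9 were used.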

Additional observations from a re-analysis of the deposited data

Results flagged for a closer look

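Both tables also list contacts between chromosomes, which the comparisons leave out. For baits of these gene families there were 4, each called in pre-granulosa cells with Sertoli cells listed at 0. That pattern was the usual one, held by 232 of the 269 such contacts of all baits on chromosomes 1 to 9 (86.2%; 209 of 232, 90.1%, in the extended table). Mmp16 met a bin of chromosome 14 with a score of 7.60, Cdh20 another bin of chromosome 14 with 6.66, and Cldn19 and Mmp12 each a bin of chromosome 13 with 5.74. The extended table listed all 4 again, at 7.30, 6.87, 5.80 and 5.80. No control sample or replicate bears on them.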

How the results depend on the processing

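No paired analysis was possible because the score columns pool the libraries of a cell type and carry no replicate numbers, and for the same reason no library could be left out. At a score of 10 or more the calls fell to 14 and 3 (ratio 4.67, against 2.55 over all baits), 7.14% of Sertoli and 33.3% of pre-granulosa calls were shared, and the median distances were 13.8 and 7.85 kb. With the extended baits there were 252 and 182 calls, a ratio of 1.38, and 37.7% of Sertoli calls were shared. Keeping equal numbers of calls over all baits (a Sertoli score of at least 6.42) left 80 Sertoli calls, a ratio of 1.13, with 33.8% shared. Restricting to baits that name these genes alone removed none of the 65 original baits and so tests nothing there. Merged touching bins, and leaving out the Itgam, Itgax and Itgad baits or the Itga9 baits kept all 7 summary values within 1.5 times or inside the counting interval. Cldnd2 turned from 2 more pre-granulosa calls to 2 more Sertoli calls with the extended bait; the cause was not tested. The other 9 of the 10 baits named for their call excess, 5 per direction, kept their direction under each alternative run on them. Keeping equal numbers of calls removes only Sertoli calls, so it could not turn the 5 with more pre-granulosa calls. Ties were cut: Adamts13 had the same excess of 5 as the first Itga9 bait. Of the unnamed baits level with Mmp15 and Col26a1, Itga10, Cdh3 and Mmp20 moved to equal numbers with the extended baits. Cldn11, Cdh17, Cdh16 and Col6a4 kept their direction there. Thbs3, Cldn24 and 5 further baits also turned with the extended baits. Of the 12 contacts with the largest score differences, the 9 that the extended table lists kept their direction. Those of Col6a6 at 134 kb, Mmp9 at 94.7 kb and Col20a1 at 75.3 kb were not listed there. The unknown depth and the pooled columns limit every value here, and neighbouring bins share signal.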

Other observations

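A bin about 86.6 kb from the extended Lamb2 bait, at the Ndufaf3 and Dalrd3 promoters (chr9:108565525-108571686), was called in pre-granulosa cells with 9.60 and listed at 0 in Sertoli cells. All 11 rows of the extended table that end on this bin are at 0 in Sertoli cells, whichever bait they start from. Of the other bins listed at 0 for a matrix or junction bait, none with further rows was at 0 in every row. Among contacts called in pre-granulosa cells only, Sertoli cells were listed at 0 in 3 of 38 with the original baits (7.89%, Wilson interval 2.72 to 20.8%), against 1.43% over all baits, and the Itga9 and Col11a1 bins account for all 3. In the extended table it was 6 of 87 (6.90%, interval 3.20 to 14.2%) against 4.28%.

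Some matrix promoters met promoters of genes outside these families with high scores in the extended table. The examples given here all scored higher in Sertoli cells. Of all 171 contacts of these genes that ended on another bait, 60 were called in both cell types. Another 64 were called in Sertoli cells only and 47 in pre-granulosa cells only. Col15a1, a basement membrane zone collagen, met Tgfbr1, a receptor for TGF-beta, with 16.9 in Sertoli and 9.12 in pre-granulosa cells. Col20a1 met Arfgap1 with 26.1 against 10.1, and Adamtsl2 met Sardh with 12.3 against 1.55.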
